A study of Rattus norvegicus with 18 samples.

Results

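The transcripts described here were listed at 0 in at least 1 animal and at 10 or more in at least 1 other animal of the same rat strain. They were chosen from the values themselves: a transcript qualified if this held among the 6 WKY or among the 6 SHR libraries. Transcripts at 0 throughout one strain and above 0 throughout the other were to be left out, which removed 0, and the assembled loci MERGE.19062 and MERGE.16214 were left out, which removed 11. Of 3659 transcripts listed for the strains, 152 (4.15%) remained. They comprised 36 Ensembl transcripts and 116 transcripts of a merged assembly, which came from 101 assembled loci. Because the choice used the WKY and SHR values, the levels in these 12 libraries are a description.

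SHR, spontaneously hypertensive rats, are inbred animals whose blood pressure rises without treatment, and WKY (Wistar Kyoto) rats are their usual normotensive control. RNA of the abdominal aorta was sequenced after removal of ribosomal RNA, with 6 rats each in the groups WKY on water, SHR on water, and SHR dosed into the stomach with ethoxysanguinarine, an alkaloid related to sanguinarine, at 3.5 mg/kg per day (SHR+ETH). Treatment lasted 10 weeks in each group. The labels of the SHR+ETH libraries name both water and ETH as treatment, and their group label was followed. Each library carries its group and its label number below, and the labels give neither age nor batch.

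A gene commonly gives rise to several transcripts, which differ in their start site, their exons or their end. A transcript can therefore vanish while its gene stays active, when another transcript of the gene takes its place, or it can vanish with the whole gene. The wall of the aorta consists of smooth muscle, endothelium and fibroblasts, with fat and nerve around it, and in bulk tissue fewer cells of a type and less RNA per cell cannot be told apart. The identifiers could not be paired with gene symbols, so the labelled tissue was not checked against its marker genes and no function is given for any transcript.

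The tables listed 3659 transcripts for each WKY and SHR library and 1635 for each SHR+ETH library, of which 420 were in both lists. The listed values summed to between 23696 and 50521 per WKY or SHR library and to between 7046 and 10220 per SHR+ETH library. The depth is unknown, because the values were no read counts and no counts could be recovered from them, so a missing transcript is described as listed at 0. Between 16.3% and 26.9% of the listed transcripts were at 0 in a WKY or SHR library, and the list-wide number of zeros was higher in each WKY library other than WKY 6 (731) than in every SHR library (597 to 745). The strain list was rich in differences, since 85.7% of its tested transcripts reached an unadjusted p under 0.05 between the strains (limma). The sources used here do not say how the list was made.

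Switching was confined to 1 strain in all members but MERGE.1331.2. In WKY 87 members switched (27 Ensembl and 60 assembled), and in SHR 66 did (9 Ensembl and 57 assembled). MERGE.1331.2 stood at 10.0 in WKY 5 and at 0 in the other WKY libraries, and at 13.5 in SHR 40, 0 in SHR 59 and between 4.91 and 7.24 in the other SHR libraries. In the whole list, before the exclusions, 91 transcripts (2.49%) met the criterion in WKY and 73 (2.00%) in SHR. The SHR libraries took no part in picking the 91, and 1 of these (1.10%) switched in SHR as well, against 72 of the 3568 others (2.02%). A transcript had to reach 10 in SHR to switch there, and 505 of the 3659 did, so most of the others could not. Of the 505, 14.5% also had a 0 in SHR. The same share was not taken among the 91. Of the 87 WKY members, 25 stood at 10 or more in all 6 SHR libraries and so held no 0 there. Transcripts of the same libraries are not independent, so no test was made, and nothing is read from 1.10% against 2.02%. The list itself, with its many strain differences, moves with the count switching in both strains, and its part was not tested.

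The members also differed in the strain in which they did not switch. Among the 87 that switched in WKY, 25 stood at 10 or more in all 6 SHR libraries, 27 others were above 0 in all 6, and 17 were at 0 in all 6. Being above 0 in all 6 covered wide ranges, as for ENSRNOT00000081240, at 0.377 to 28.7 in SHR. Apart from MERGE.1331.2, the remaining 17 had zeros in some SHR libraries and no value of 10. Among the 66 that switched in SHR, 8 stood at 10 or more in all 6 WKY libraries, 14 others were above 0 in all 6, and 28 were at 0 in all 6. A further 15 had zeros in some WKY libraries and no value of 10. In these counts, members that switched in WKY more often had SHR fully present than fully at 0. The reverse was seen for those that switched in SHR. The counts are given without a test, the rule used these values, and the shares of the whole list in these states were not counted. Most WKY libraries also held more zeros over the whole list than the SHR libraries, so nothing is read from the contrast.

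**Figure D1:**
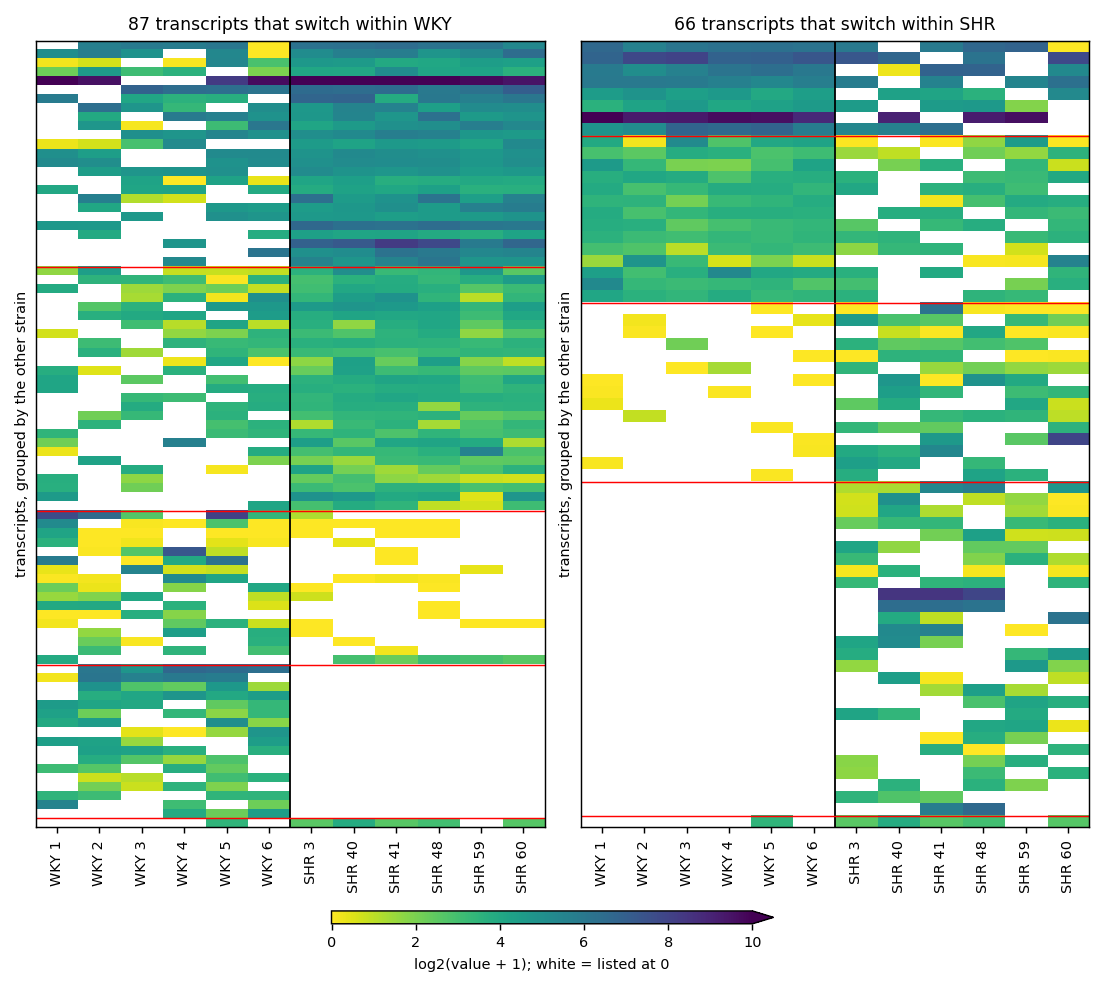
Each row is a transcript that switches within WKY (left, 87) or SHR (right, 66), each column a library, and the colour gives log2(value + 1), with white for values listed at 0. Red lines separate rows by the state of the other strain, from top to bottom 10 or more in all 6, above 0 in all 6, mixed, 0 in all 6, and switching in both (1 row), and the white cells scatter over all libraries of the switching strain.

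Zeros were spread over all animals. The 87 WKY members were at 0 in 26 (WKY 6) to 44 (WKY 1) cases per library, and the 66 SHR members in 22 (SHR 59) to 30 (SHR 40). WKY 6 also had the fewest zeros of its strain over the whole list, while WKY 1, with 974, was second to WKY 2, with 986. The WKY members fell into 41 different sets of libraries at 0, and the SHR members into 35. The most frequent sets were WKY 1 with WKY 2 (6 members) in one strain, and in the other SHR 40 alone, SHR 48 alone, and SHR 48, 59 and 60 together (4 members each). WKY 1 was thus at 0 in over 50% of the WKY members, but no single set of animals at 0 held more than 6 members.

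Most members did not flip cleanly. Of the 522 values of WKY members in WKY, 211 were 0, 178 were 10 or more and 133 (25.5%) lay between. In SHR 148 of 396 values were 0, 121 were 10 or more and 127 (32.1%) lay between. A single library reached 10 in 44 of the WKY members and in 30 of the SHR members. The highest value had a median of 20.1 over the WKY members and 16.6 over the SHR members, so many stood near the threshold: it was under 20 in 43 and in 40 of them. Just inside the threshold lay MERGE.28835.1 (10.0), MERGE.24520.1 (10.1) and MERGE.10110.4 (10.2), and just outside it MERGE.9635.2 (9.95), ENSRNOT00000049574 (9.92) and MERGE.17129.7 (9.89).

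A smaller set took only the values 0 or at least 10 in the strain in which they switched. These numbered 26 in WKY and 10 in SHR, 36 transcripts in all, and were singled out after their values had been seen. In 19 of the WKY transcripts at least 2 animals were at 10 or more, and in 14 of these the animals with signal lay within 2-fold of each other (median ratio of highest to lowest 1.58). The other strain was at 10 or more in all 6 animals for 16 of the 26. For 13 of these 16 the mean of the WKY animals with signal was between 0.5 and 2 times the SHR mean (median 0.95), and the full range of the ratio was 0.167 to 1.49. In SHR all 10 had at least 2 animals at 10 or more, within 2-fold of each other in 7 (median ratio 1.77), and for the 5 with WKY at 10 or more in all 6 animals the ratio to the WKY mean was 0.79 to 1.04.

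The most abundant member was ENSRNOT00000005872. It stood at 2209 in WKY 1, 742 in WKY 2, 317 in WKY 5 and 833 in WKY 6, and at 0 in WKY 3 and WKY 4. In SHR it stood at 1551, 1303, 1351, 1362, 853 and 717 in animals 3, 40, 41, 48, 59 and 60. These 2 WKY animals were the only ones of 12 without it. The group means were 683 ± 827 in WKY and 1189.6 ± 327 in SHR (SD, n = 6), so the spread in WKY exceeded its mean.

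ENSRNOT00000027360 stood at 35.7, 32.4, 29.2 and 34.8 in WKY 1, 2, 5 and 6 and at 0 in WKY 3 and 4, with 25.2 to 35.0 in SHR. ENSRNOT00000061657 stood at 31.6, 19.9, 36.5 and 36.1 in the same 4 animals and at 0 in WKY 3 and 4, with 24.3 to 36.9 in SHR. In both, the 4 WKY animals with signal overlapped the SHR range, and none had an intermediate value. Of all listed transcripts both were the most like ENSRNOT00000005872 over the 12 libraries (Pearson r of log2(value + 1) 0.987 and 0.976), followed by MERGE.29394.2 (0.966), no member, which reached 4.88. These correlations share the libraries and rest mainly on the 2 animals at 0. In all, 16 other listed transcripts were at 0 in exactly WKY 3 and 4 among the 12 libraries, and the 14 that were no members reached at most 5.63.

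Other abundant transcripts were at 0 in WKY 1. ENSRNOT00000075733 was at 0 in WKY 1 and WKY 2 and between 70.0 and 115 in the other WKY animals, within the SHR range of 61.5 to 127. ENSRNOT00000015756 was at 0 in WKY 1 and 0.0268 in WKY 6, and between 50.2 and 64.99 in the other 4, with 40.8 to 85.9 in SHR. ENSRNOT00000091464 was at 0 in WKY 1 and WKY 5, at 9.24 in WKY 4 and between 26.4 and 80.3 in the others, with 19.6 to 46.9 in SHR. WKY 1 was common to the 3, and the other WKY animals at or near 0 differed between them.

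MERGE.23684.1 was at 0 in WKY 2 and WKY 6, between 10.9 and 16.0 in WKY 3, 4 and 5 and at 55.7 in WKY 1, while SHR ranged from 13.5 to 111. ENSRNOT00000091389 was at 0 in WKY 1 and at 64.8, 26.4, 99.97, 90.3 and 79.999 in WKY 2 to 6, and at 0 in all 6 SHR animals. Signal could also be the exception. MERGE.7052.2 was at 26.5 in WKY 4 and at 0 in the other WKY animals, with 119, 146, 305, 219, 58.4 and 103 in SHR 3, 40, 41, 48, 59 and 60. MERGE.11336.1 was graded rather than two-valued, at 206, 92.7, 5.41, 0, 268 and 9.79 in WKY 1 to 6, and in SHR only SHR 3 had signal, at 1.35. MERGE.15421.4 was at 156 in WKY 4, 5.36 in WKY 3 and under 1 in the other WKY animals, and no SHR value exceeded 0.0216.

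The most abundant transcript that switched in SHR was MERGE.144.2. It stood at 528 in SHR 40, 606 in SHR 48 and 792 in SHR 59, and at 0 in SHR 3, 41 and 60. All 6 WKY animals had it, at 1147, 620.4, 633, 802, 776 and 458. The 3 SHR animals with signal lay within the WKY range, and the other 3 were at 0. Its locus held 1 other listed transcript, MERGE.144.1, which was at 21.8, 27.0 and 46.1 in SHR 40, 48 and 59 and at 4.32, 2.62 and 2.48 in SHR 3, 41 and 60, against 23.7 to 52.9 in WKY. Both listed transcripts of this locus were thus low in the same 3 animals, and the sum of the locus ranged from 2.48 to 838 in SHR. Beside MERGE.144.1 (Pearson r over 12 libraries 0.976), the transcripts most like it were MERGE.22879.3 (0.974) and MERGE.1622.12 (0.909), which reached no more than 7.82 and 3.04. These correlations share the libraries and rest mainly on the 3 SHR animals in which MERGE.144.2 was at 0.

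A different picture was seen for MERGE.607.5. It was listed at 351, 349 and 242 in SHR 40, 41 and 48, at 0 in SHR 3, 59 and 60, and at 0 in all WKY animals. The other listed transcript of its locus, MERGE.607.2, was present in all 12 animals, at 83.7, 84.2 and 79.5 in SHR 40, 41 and 48, at 55.5, 81.2 and 52.9 in SHR 3, 59 and 60, and between 17.1 and 54.9 in WKY. The locus was therefore never without signal, unlike its larger transcript. ENSRNOT00000029435 had the same pattern as MERGE.607.5, at 84.9, 82.3 and 71.6 in SHR 40, 41 and 48 and at 0 in the other 9 animals (Pearson r 0.9999 over the 12 libraries). MERGE.15920.1 (0.998) and MERGE.11417.2 (0.979) followed, at no more than 9.84 and 2.12. These correlations share the libraries and rest mainly on which animals were at 0. Together 7 other listed transcripts had signal in exactly SHR 40, 41 and 48 of the 12 animals.

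**Figure D2:**
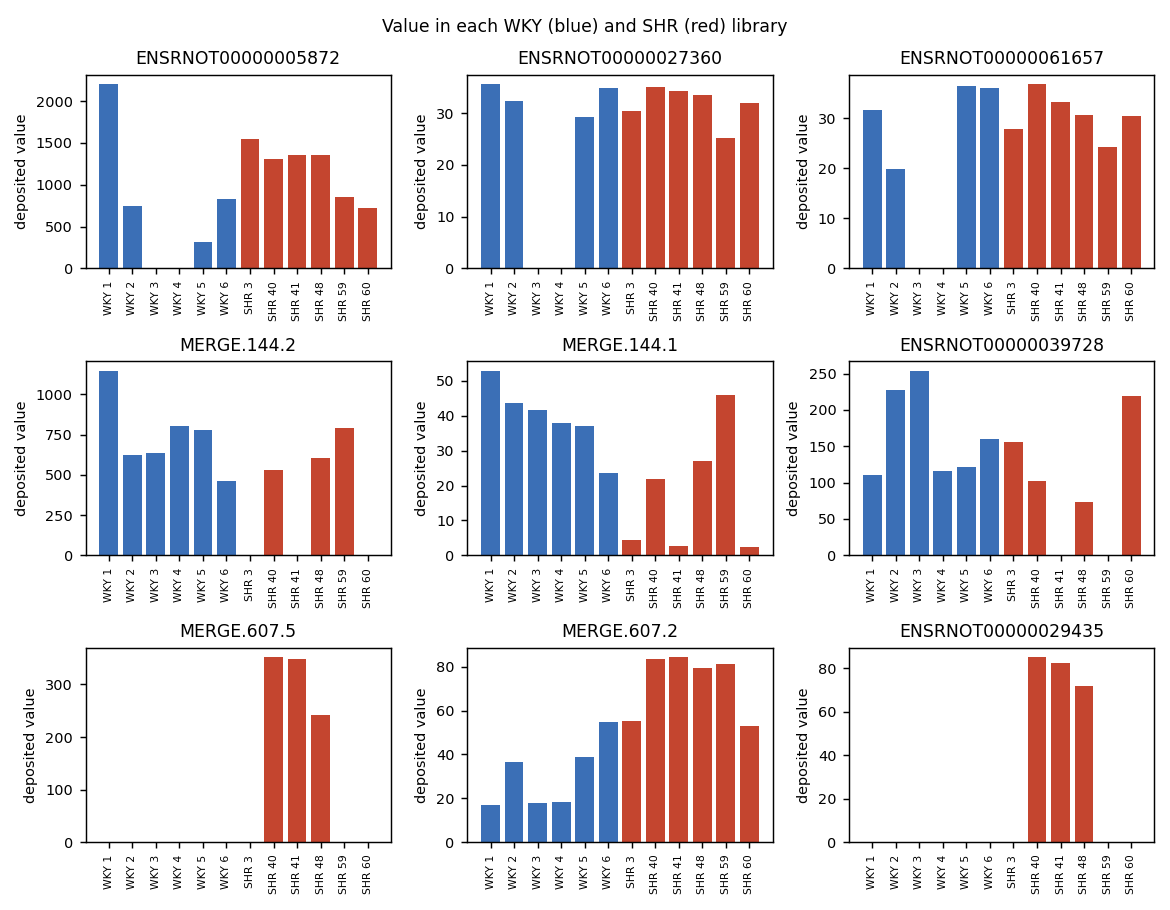
Bars give the deposited value of 9 transcripts in each WKY (blue) and SHR (red) library, each panel with its own axis from 0. The 3 transcripts of the top row are at 0 in WKY 3 and 4, ENSRNOT00000039728 is at 0 in SHR 41 and 59, MERGE.144.2 and MERGE.144.1 are both low in SHR 3, 41 and 60, and MERGE.607.5 and ENSRNOT00000029435 appear in SHR 40, 41 and 48 while MERGE.607.2 is present in all 12.

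Further SHR divisions involved other animals. ENSRNOT00000039728 was at 0 in SHR 41 and 59 and at 156, 102, 72.7 and 219 in SHR 3, 40, 48 and 60, with 110.0 to 254 in WKY. ENSRNOT00000068274 was at 0 in SHR 40 and 48 and at 54.1, 46.5, 43.9 and 78.0 in SHR 3, 41, 59 and 60, with 39.97 to 61.1 in WKY. In both, the 4 SHR animals with signal were at the WKY level, apart from the highest ENSRNOT00000068274 value (SHR 60) and the lowest of ENSRNOT00000039728 (SHR 40 and 48).

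MERGE.95.2 was at 0 in SHR 48, 59 and 60 and at 41.3, 49.6 and 79.8 in SHR 3, 40 and 41, with 27.2 to 111 in WKY. MERGE.23962.1 was at 0 in SHR 40, 0.00586 in SHR 60 and between 58.2 and 110.2 in the other 4, with 47.2 to 97.0 in WKY. MERGE.16315.2 was at 0 in SHR 3 and 59, 0.180 in SHR 40 and 115, 112 and 37.6 in SHR 41, 48 and 60, with 33.2 to 83.1 in WKY. The other listed transcript of its locus, MERGE.16315.5, was at 28.0, 91.8 and 31.0 in SHR 3, 40 and 59. It was at 3.69, 5.56 and 15.1 in SHR 41, 48 and 60, so the locus had signal in all SHR animals. MERGE.28894.13 was at 240.2 in SHR 60, 23.5 in SHR 41, 4.93 in SHR 59 and 0 in the others, and in WKY only WKY 6 had signal, at 0.0325. The animals at 0 thus differed from transcript to transcript in SHR as they did in WKY.

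Of the 116 assembled members, 64 were the only listed transcript of their locus, so nothing could be said of the rest of the locus. The other 52 had at least 1 further listed transcript. When such a member was at 0, the other listed transcripts of its locus were also at 0 in 15 of 124 instances (12.1%). Members of the same locus were counted separately and entered each other's sums, so the instances are not independent. MERGE.2098.5, MERGE.2098.6, MERGE.28401.16 and MERGE.28401.20 gave 3 of the 15 each. The signal of the other listed transcripts was often low, however, and their median sum in those libraries reached 10 for 20 of the 52. Whether they rose or fell with the member was divided. Their median sum was higher in libraries where the member was at 0 than in those where it was at 10 or more for 25 members, lower for 26 and equal for 1. Here too, members of the same locus were counted separately.

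MERGE.16145 had the most members, 5 of its 32 listed transcripts. MERGE.16145.22 was at 14.1, 21.2, 0, 0, 32.4 and 2.44 in WKY 1 to 6, and MERGE.16145.17 at 7.93, 5.16, 0, 12.7, 4.32 and 0, and both were at 0 in all SHR animals. In SHR, MERGE.16145.64 was at 0, 20.05, 9.64, 0, 7.82 and 9.33 in animals 3, 40, 41, 48, 59 and 60, MERGE.16145.32 at 22.0, 6.39, 5.06, 0, 8.91 and 3.49, and MERGE.16145.78 at 4.06, 8.92, 9.35, 0, 8.56 and 11.3. All 3 were at 0 in SHR 48. The sum of the 32 listed transcripts of MERGE.16145 was steady, at 172 ± 26.3 in WKY and 179.9 ± 29.0 in SHR (SD, n = 6). It had a 1.61-fold range within each strain and was 199 in SHR 48. Any transcripts of the locus outside the list were not summed.

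**Figure D3:**
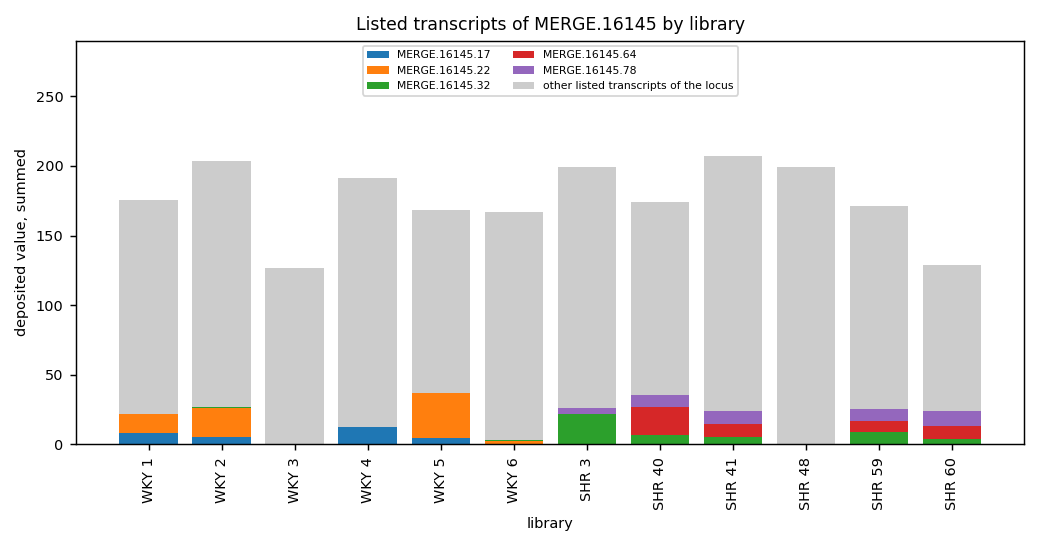
Stacked bars give the summed deposited value of the 32 listed transcripts of MERGE.16145 in each library, with the 5 that switch in colour and the other 27 in grey. The bar height stays between 127 and 207 while the coloured parts come and go.

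The sums of the other loci with 3 members, which include those members, varied more. In MERGE.15382, MERGE.15382.17 (0 in WKY 1, up to 28.6 in WKY 2) and MERGE.15382.3 (0 in WKY 1, 12.8 to 26.9 in the others) were both missing in WKY 1 and in all SHR animals, and MERGE.15382.15 was at 46.2 in SHR 60 and under 0.1 in the other SHR animals. The locus sum ranged from 9.67 to 71.7 in WKY and from 7.81 to 77.3 in SHR. In MERGE.15948, MERGE.15948.29 and MERGE.15948.45 were at 0 in SHR 48, 59 and 60, and MERGE.15948.46 was at 40.4, 51.4 and 25.7 in SHR 41, 48 and 60 and at 0 in SHR 59. All 3 were at 0 in WKY, and the locus sum ranged from 4.36 to 63.8 in SHR.

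Of 15 pairs of members that belonged to the same locus and switched in the same strain, 1 pair had a member at 0 in exactly the libraries in which the other was at 10 or more. In 8 of the 15 pairs, that one included, at least 1 library had a member at 0 and the other at 10 or more, and in 13 at least 1 library had both at 0. The single matching pair was in MERGE.7896. MERGE.7896.1 was at 0 in SHR 40, 48 and 59, where MERGE.7896.2 was at 26.2, 28.8 and 14.3, and MERGE.7896.1 was at 11.7, 14.3 and 9.87 in SHR 3, 41 and 60, where MERGE.7896.2 was at 0, 0.0264 and 0. In WKY the locus was carried by MERGE.7896.1 (7.20 to 38.9), with MERGE.7896.2 at no more than 0.0262. The listed locus therefore had signal in all 12 animals. By contrast MERGE.2098.5 and MERGE.2098.6 had signal in the same animals, 13.7 and 19.8 in SHR 40 and 71.1 and 0.919 in SHR 60, and both were at 0 in SHR 3, 48 and 59.

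The SHR+ETH animals took no part in choosing the transcripts. Of the 28 members in their list, 10 (35.7%) also switched among the 6 treated animals, against 7 of the 392 other shared transcripts (1.79%) and 4.05% of all 420. All 10 were transcripts that switched in WKY, of which the list held 15, and none of the 13 that switched in SHR did so in SHR+ETH. The 10 thus switched in WKY and in treated SHR, and not in untreated SHR. No test was made, because transcripts of the same libraries are not independent. Members were chosen to reach 10 in a WKY or SHR library, and a transcript under 10 in all treated animals could not switch there. Among the 420, 26 were at 10 or more in at least 6 of the 12 SHR and SHR+ETH libraries, 9 of them members. This is not the base for switching, which needs 10 in at least 1 treated animal, and that base was not counted. The shares of members and of other transcripts are thus not on a like base. The shared list is rich in treatment differences, with an unadjusted p under 0.05 for 60.3% of those tested (limma), and the part of this in the counts was not tested.

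ENSRNOT00000015756 stood at 123, 0, 40.7, 9.56, 76.8 and 0 in SHR+ETH 1, 2, 54, 58, 64 and 65, with all 6 untreated SHR between 40.8 and 85.9. ENSRNOT00000035748 was at 15.0, 11.8 and 13.6 in SHR+ETH 54, 58 and 64 and at 0 in the others, at 0 in all untreated SHR, and at 11.9 to 18.8 in 4 WKY animals. ENSRNOT00000074075 was at 13.9, 12.8 and 20.6 in SHR+ETH 1, 54 and 58 and at no more than 0.0102 in the others, against 12.3 to 19.6 in untreated SHR and 17.2 and 18.1 in WKY 3 and WKY 5. In each of the 3, at least 2 treated animals were at 0 and at least 3 others were above 10.

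MERGE.25785.7 was at 29.3, 45.3, 7.65, 41.2, 0 and 4.75 in SHR+ETH 1, 2, 54, 58, 64 and 65, against 30.6 to 75.1 in untreated SHR. In WKY it was at 70.8 in WKY 6 and 0 elsewhere. Its locus held 2 other listed transcripts, and the sum of the locus, this member included, ranged from 27.0 to 140 in WKY. MERGE.11336.1 was at 43.8, 0, 0, 14.0, 19.2 and 3.12 in the same order of treated animals, whereas 5 untreated SHR were at 0. ENSRNOT00000064478 was at 30.6 in SHR+ETH 1 and at no more than 1.54 in the other treated animals, with 0.952 to 19.99 in untreated SHR. MERGE.25920.8 was at 18.1, 0, 2.57, 13.7, 3.11 and 0 in the treated animals and between 6.14 and 46.1 in untreated SHR. In each of these 4 transcripts the treated and untreated ranges overlapped.

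Of the 13 shared transcripts that switched in SHR, 3 were at 10 or more in all 6 treated animals and 6 were at 0 in all 6. MERGE.144.2 stood at 1030.4, 392, 609, 975, 626 and 675 in SHR+ETH 1, 2, 54, 58, 64 and 65, and so was present in all 6, as in WKY, whereas 3 untreated SHR were at 0. ENSRNOT00000039728 was at 86.1 to 223 in the treated animals and ENSRNOT00000073107 at 12.5 to 27.1, with 2 untreated SHR at 0 in each. The 6 at 0 in all treated animals included ENSRNOT00000029435. The remaining 4 were ENSRNOT00000056558 (6.91 to 14.9) and MERGE.28401.16 (0.236 to 5.15), above 0 in all 6 treated animals, and MERGE.15861.10 and MERGE.2098.6, at no more than 0.0921.

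**Figure D4:**
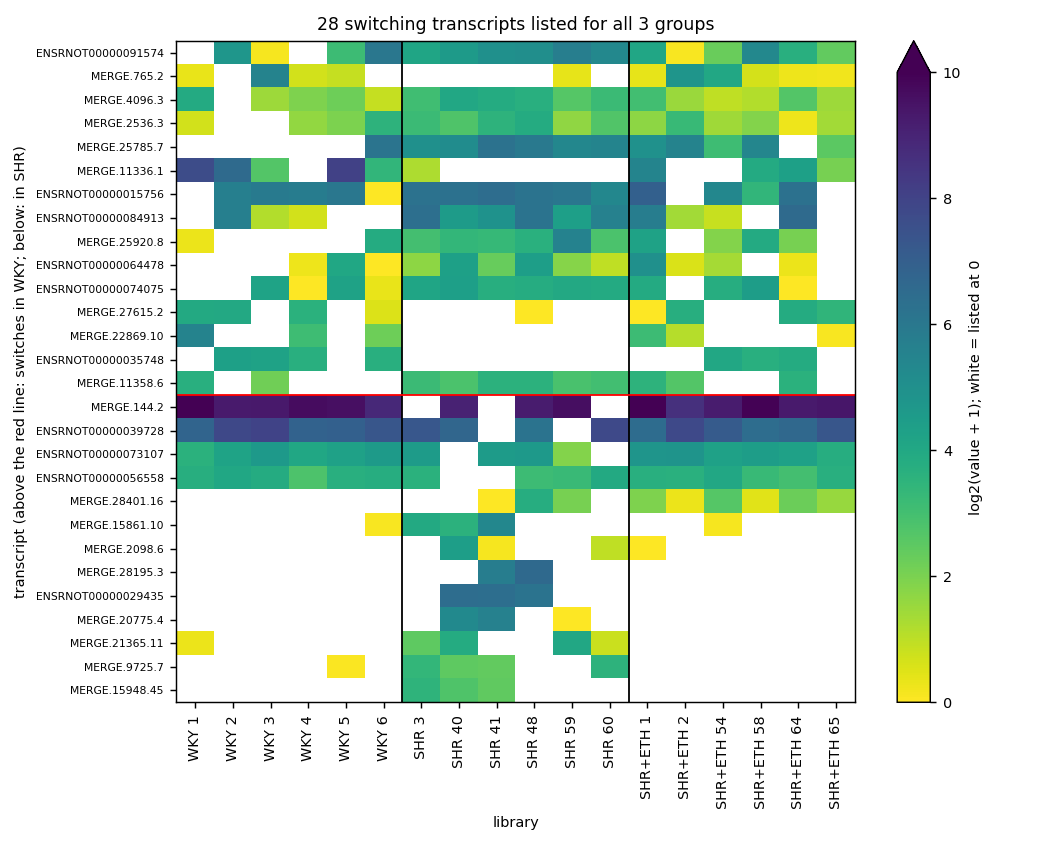
Rows are the 28 switching transcripts listed for all 3 groups, columns the 18 libraries, and the colour gives log2(value + 1), with white for 0. Above the red line (switching in WKY) white cells recur in SHR+ETH in 11 of 15 rows, and below it (switching in SHR) the SHR+ETH cells are filled in all 6 animals for 5 rows and at 0 in at least 5 animals for the other 8.

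Tests between groups were fitted over all listed transcripts. Between the strains 77 members had values of at least 1 in 6 of the 12 libraries, and 41 of these (53.2%) differed, 33 higher and 8 lower in SHR, against 82.5% of the 1585 transcripts tested (44.4% higher and 38.1% lower). The median log2 fold change was 1.66 over the 77 and 0.63 over the 1585. The other 75 members were not tested. The rule acted on the same values, and a transcript could pass the filter through the strain in which it was high, so nothing is read from these counts.

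Between SHR+ETH and SHR 15 members were tested and 4 (26.7%) differed, against 33.7% of 199 (8.54% higher and 25.1% lower), with a median log2 fold change of -1.53 over the 15 and -0.85 over the 199. The mean of MERGE.144.2 was 718 ± 242 in treated and 321 ± 362 in untreated SHR (SD, n = 6), a rise of 4.76 on the log2(value + 1) scale (SE 1.62, adjusted p = 0.0449 by limma). It was chosen for its zeros in untreated SHR, so this difference is a description. Lower in treated animals were ENSRNOT00000084913, at 24.5 ± 38.9 against 44.8 ± 25.8 (-2.89, SE 1.03, adjusted p = 0.0472), ENSRNOT00000091574, at 12.6 ± 14.5 against 32.2 ± 12.7 (-1.98, SE 0.73, adjusted p = 0.0477), and MERGE.4096.3, at 3.05 ± 2.59 against 10.2 ± 3.86 (-1.61, SE 0.47, adjusted p = 0.0313). The groups overlapped in all 4. The treated animals were divided in ENSRNOT00000084913, with 53.5 and 91.1 in SHR+ETH 1 and 64 and no more than 1.64 in the others, and ENSRNOT00000091574 ranged from 0.0843 in SHR+ETH 2 to 39.8 in SHR+ETH 58. In WKY, ENSRNOT00000084913 was at 50.5 in WKY 2 and at no more than 1.23 elsewhere, and ENSRNOT00000091574 at 65.01 and 26.1 in WKY 6 and WKY 2, 7.92 in WKY 5 and no more than 0.0949 in the others.

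A pseudocount of 0.1 ended all 4 calls, although 11 members had an unadjusted p under 0.05. Without the filter MERGE.4096.3 kept its call (adjusted p = 0.0436 by limma) and the other 3 lost theirs (0.0590), while another member was called. The number called was 0 without SHR 3, SHR 41 or SHR+ETH 54, 1 without SHR 40, SHR 48, SHR 60 or SHR+ETH 65, and 9 without SHR+ETH 1. Quantile normalization gave 2 higher and 1 lower among the members, and turned the 17 higher and 50 lower of all tested into 48 higher and 7 lower.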

How the data were processed

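Per the labels' protocols, aortic RNA was depleted of ribosomal RNA before sequencing. The authors deposited 1 signal value per transcript and library, and per the file headers it has no named unit. Of tools, limma is named in the submitters' processing notes, while aligner, quantification, build and assembly were not given in the sources used here. Blank rows of the SHR+ETH tables (2024 each) were left out. Low values were checked for being multiples of 1 read's worth (tolerance 0.1, first 20 steps). At most 32.7% of a library were whole, so no read counts were recovered, depth is unknown, and no counting interval is given. No 2 libraries were identical. Rats are separate animals.

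Groups came from the labels. The test was limma 3.58.1 (R 4.3.3; lmFit, eBayes with trend) over transcripts at 1 or more in at least 6 of 12 libraries, on log2(value + 1), which understates changes of low transcripts, with group as the only term and Benjamini-Hochberg adjustment over all tested (threshold 0.05, two-sided). The step was tested on simulated normal values without zeros, pseudocount or filter, which does not show how it behaves on transcripts with values at 0. Summaries used Python 3.11.15, numpy 2.4.6, pandas 2.3.3 and scipy 1.17.1. Named transcripts were those with the highest values by identifier type, those switching in both strains or in SHR+ETH, those called under treatment, loci with most members, members nearest the threshold, and the closest patterns; the exchange pair followed the rule. MERGE.2098, MERGE.607.2, MERGE.16315.5 and the transcripts with shared zeros were added after their values were seen, as were ENSRNOT00000073107, ENSRNOT00000056558, ENSRNOT00000081240, MERGE.15861.10 and MERGE.28401.16. The members, lists and tests were chosen with earlier results of these data known. None of the identifiers matched the RefSeq gene table.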

Additional observations from a re-analysis of the deposited data

Results flagged for a closer look

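A gap test looked for a library lying apart in 48 groups of 6 values, and it marked 8. Named members were tested in WKY or SHR only where they had not qualified as switching, and in SHR+ETH whether or not they switched there. The rule still read all WKY and SHR values, and counts and shares of members per library rested on them. The SHR+ETH values took no part in choosing the members. Some members were named for switching in SHR+ETH and for their high values there. ENSRNOT00000064478 was among them, so its mark rests on the values that named it. By chance the gap test marks about 1 in 20 groups of normal values, whereas the groups tested here were skewed and held many zeros. The whole list of SHR+ETH 65 had 547 zeros, and those of the remaining treated animals 416 to 450. ENSRNOT00000064478 reached 30.6 in SHR+ETH 1 and at most 1.54 in the remaining treated animals. MERGE.25920.8 reached 46.1 in SHR 59, the remaining untreated SHR ranging from 6.14 to 11.6. MERGE.15382.15 reached 27.4 in WKY 2, the remaining WKY ranging from 0.511 to 8.48. MERGE.24520.1 reached 1.57 in WKY 4 and at most 0.0226 in the remaining WKY. MERGE.11336.1 was at 1.35 in SHR 3, MERGE.15421.4 at 0.0216 in SHR 41 and MERGE.28894.13 at 0.0325 in WKY 6, each with the rest of its strain at 0. A group with a single value above 0 is always marked, whatever its size, so nothing is read from these marks.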

How the results depend on the processing

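No paired analysis was possible because the groups compared share fewer than 2 label numbers (SHR with WKY) or none (SHR+ETH with SHR), and these numbers belong to different animals. The number of members was 336 with a high value of 5, 70 with 20, and 67 when 2 libraries at 0 and 2 at 10 or more were required. It was 181 when values below 0.1 counted as 0, and 135 to 147 without 1 library. With a high value of 20, 0 of 46 WKY switchers switched in SHR, and without 1 library the share was 0 to 1.37%. The share of shared members switching in SHR+ETH was 32.0% to 37.0% without 1 library. Between the strains 2547 transcripts and 80 members were called with no filter, 205 and 19 with a filter at 10, and 961 to 1083 and 29 to 42 without 1 library. Between SHR+ETH and SHR 12 transcripts and 0 members were called with a pseudocount of 0.1, 43 and 2 when unfiltered, 12 when filtered at 10, and 7 to 70 and 0 to 9 without 1 library, the lowest being 7 without SHR 41 and 15 without SHR 3. The filter at 10 tests fewer transcripts, and the cause of the other shifts was not tested. The named log2 fold changes between SHR+ETH and SHR kept their sign under all alternatives run, with adjusted p from 0.00995 to 0.184. Quantile normalization moved the median log2 fold change of all tested from -0.85 to -0.26 between SHR+ETH and SHR. With unknown depth, a value listed at 0 cannot be given an upper limit.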
